A study of Mus musculus with 4 samples.

Results

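The genes described here encode the initiation, elongation and termination factors of cytoplasmic translation, together with the cytoplasmic poly(A)-binding proteins. They were taken by symbol, as every gene whose name begins with Eif1 to Eif6 or Eef1 or Eef2, plus Etf1, Gspt1, Gspt2 and the Pabpc genes, leaving out the eIF2 kinases and pseudogenes. The rule gave 72 of the 50600 genes in the table. No measured value entered it. RNA was sequenced from primary epithelial cells of the C57BL/6 mouse colon, in 2 libraries labelled wild type for Mettl14 (WT) and 2 labelled Mettl14 knockout (KO). Mettl14 encodes the RNA-binding partner of Mettl3 in the complex that writes N6-methyladenosine (m6A) into mRNA. The exon deleted, the driver of any Cre, the age of the animals and the number pooled per library were not given in the sources used here. Every sample title, WT and KO, carries the code C-2W, which the labels do not explain. Mettl14 itself stood at 11.7 and 8.67 CPM in WT and 3.99 and 3.94 CPM in KO (CPM, counts scaled to the library total by TMM, the trimmed mean of M-values), a log2 fold change of -1.36 with an edgeR adjusted p of 0.0503, just outside the threshold of 0.05.

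Initiation begins when eIF2 brings the initiator tRNA to the small ribosomal subunit, with eIF1, eIF1A, eIF3 and eIF5 bound to it. The cap-binding complex eIF4F, made of eIF4E, the scaffold eIF4G and the helicase eIF4A, loads this subunit onto mRNA, and the 4E-binding proteins block that step when mTORC1 is inactive. The ribosome then moves along the coding sequence with eEF1A, which delivers aminoacyl-tRNA, and eEF2, which drives translocation and is inhibited when the kinase eEF2K phosphorylates it. The colonic epithelium renews itself continuously from its crypts and secretes large amounts of mucin. Many translation factor mRNAs carry a 5′ terminal oligopyrimidine tract and are themselves controlled at translation, which RNA levels do not show.

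Library totals ran from 22136440 to 24991060 counts, of which 28.6% to 33.8% came from mitochondrially encoded genes. WT replicate 1 and KO replicate 2 were from males and the other libraries from females, read from Xist and Y-linked genes, so each group held libraries of more than 1 animal. KO replicate 2 stood apart by a summed level of 7 fibroblast markers of 610.4 CPM against 77.9 to 106 CPM in the other libraries, and of 6 erythroid markers of 6682 CPM against 1353 to 2737 CPM. The 9 epithelial markers were abundant in every library, summing to 9716 and 11841 CPM in WT and 8693 and 7771 CPM in KO. None of them was called at an edgeR adjusted p under 0.05. At an unadjusted p under 0.05, 5 (55.6%) were lower in KO, against 15.7% of all genes. Without overlap 7 (77.8%) were lower and 0 higher, against 32.2% and 31.1% of all genes. The 10 macrophage markers summed to 73.6 and 104 CPM in WT and 182 and 169.9 CPM in KO. Of these 3 (30%) were called higher, against 1.72% of all genes. Of 10 proliferation markers 6 (60%) were called higher, and the list summed to 269 and 252 CPM in WT and 397 and 384 CPM in KO. Against these, 1 proliferation marker was lower in KO without overlap (log2 fold change -0.72), at an edgeR unadjusted p under 0.05 and not called. Neutrophil markers were at 5.01 and 21.1 CPM in WT and 51.6 and 13.4 CPM in KO, and T cell markers at 41.2 and 45.7 against 67.9 and 51.4 CPM. Goblet cell markers summed to 8892 and 12023 CPM in WT and 8796 and 7738 CPM in KO. Of these 7 markers, 5 (71.4%) were lower without overlap, against 32.2% of all genes, and 1 (14.3%) higher, against 31.1%. None was called by edgeR. Endothelial markers summed to 5.78 and 9.30 CPM in WT and 14.8 and 14.1 CPM in KO. Smooth muscle markers were at 7.56 and 10.9 CPM in WT and 12.5 and 26.3 CPM in KO, so that both lists were higher in both KO libraries. All 3 tested endothelial markers and 4 of 5 tested smooth muscle markers (80%) were higher in KO without overlap, against 31.1% of all genes. EdgeR called none of them (1 and 2 at an unadjusted p under 0.05). Vwf had 16 and 48 counts in WT and 100 and 159 in KO, and Cdh5 only 4 and 10 against 11 and 13. The untested endothelial markers did not follow. Kdr had 3 and 7 counts in WT and 3 and 7 in KO, and Plvap 1 and 7 against 1 and 9. B and plasma cell markers stood at 11.2 and 34.1 CPM in WT and 31.5 and 24.2 CPM in KO, and neural and glial markers at 37.0 and 43.6 against 52.5 and 26.0 CPM. Among the defining markers Emcn (endothelium) and Sox10 (glia) had no counts in 3 of 4 libraries. The part of these differences in the values below was not tested.

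Of the 72 members, 63 had enough counts to be tested. Eif1a was the 1 member called higher in KO and Eef2k the 1 called lower, by edgeR's quasi-likelihood test at an adjusted p under 0.05 over all 14861 genes tested. Over all genes, 255 (1.72%) were called higher and 282 (1.9%) lower, so the members' share of calls, 1.59% in each direction, was near the background. At an unadjusted p under 0.05, 7 members were higher (11.1%) and 7 lower (11.1%), against 14.8% and 15.7% of all genes. A different split appeared in small differences: 41 of 63 members (65.1%) had a log2 fold change above 0, against 49% of all genes, and 22 lay below 0, against 51% of all genes. Both KO libraries lay above both WT libraries for 27 members (42.9%) and below them for 13 (20.6%), against 31.1% and 32.2% of all genes. The median log2 fold change was 0.13 for the members and -0.01 for all genes tested. DESeq2, with more calls over all genes (6.39% higher and 6.55% lower), called 3 members higher (Eif1a, Eif4ebp1 and Eef2) and 3 lower (Eef2k, Eif1 and Eif4a2), while limma-voom called 1 in each direction (Eif1a and Eef2k). Neither edgeR nor DESeq2 called a gene of eIF2 and eIF2B, eIF3, eIF4E, eIF4G, the eEF1 complex, the poly(A)-binding proteins, the release factors or the alternative factors Eif2a and Eif2d. At an unadjusted p under 0.05 by edgeR, these groups held 3 higher genes (Eif2b1, Eif3d and Eef1g) and 2 lower ones (Eif4e2 and Eif2d).

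**Figure D1:**
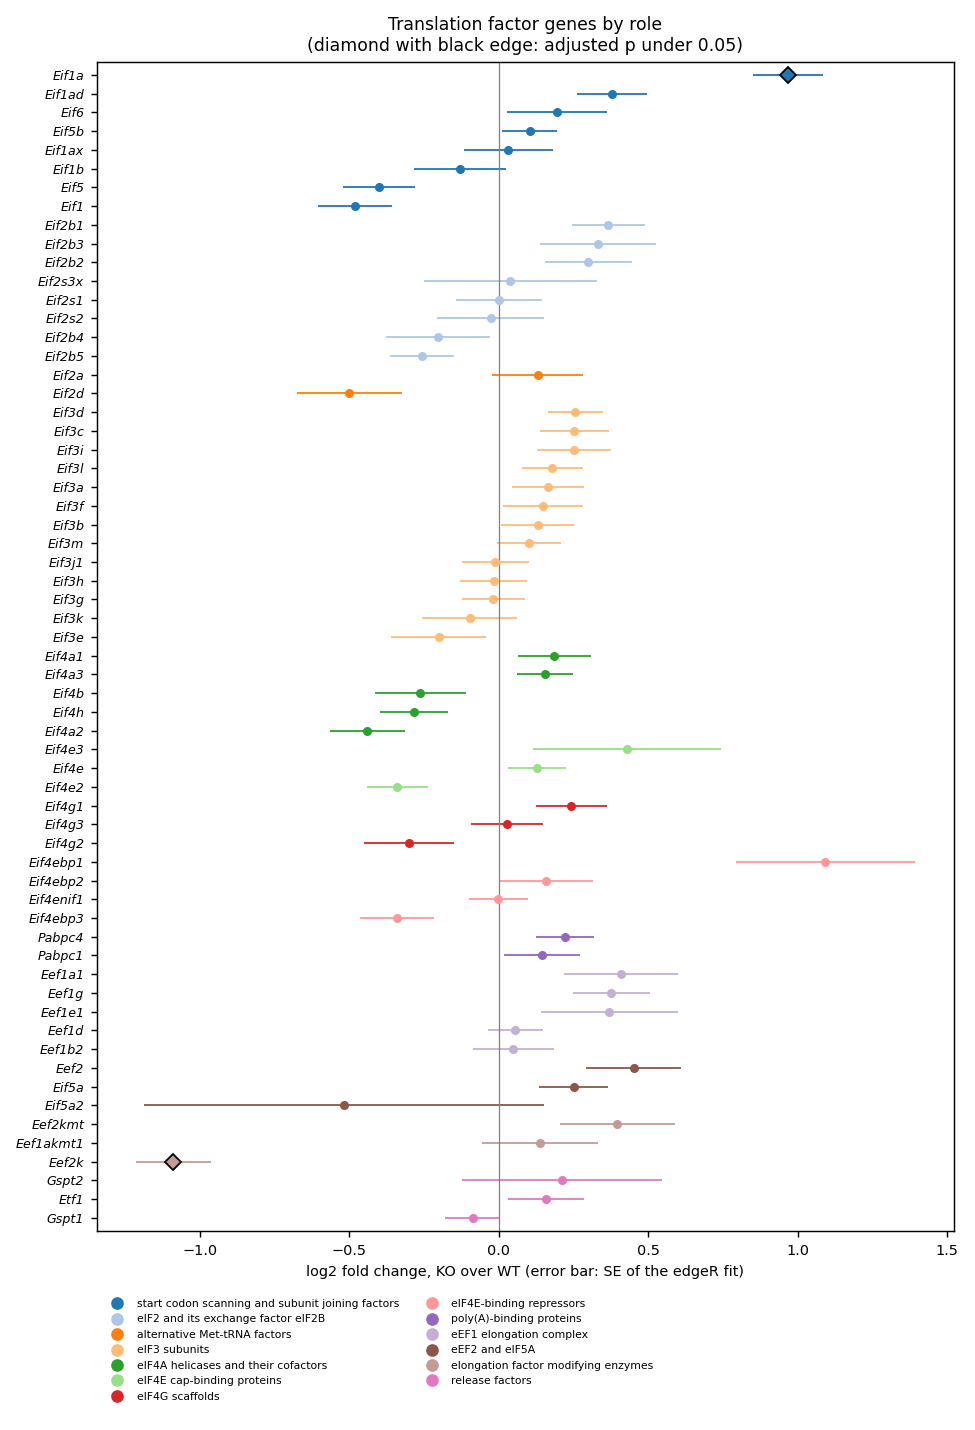
Log2 fold change, KO over WT, of the tested members (x axis; bars give the standard error of the edgeR fit), grouped by role and sorted within each role; Eif2s3y, which is on the Y chromosome and absent from the female libraries, is left out. The diamonds with a black edge mark the called genes, Eif1a at 0.97 and Eef2k at -1.09, and most other members sit within 0.50 of 0.

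The counts over all genes depend on the scaling. With library size scaling 604 genes were called higher and 186 lower (76.5% of calls higher, against 47.5% with TMM factors), and with upper quartile factors 416 and 265 (61.1% higher). Library size scaling moved the median log2 fold change of all genes by 0.17, and that of the members to 0.30. The members' median minus that of all genes was 0.143 with TMM factors and 0.142 to 0.145 with the other scalings. A scaling moves all genes by nearly the same amount, so this difference could hardly change with it. It was 0.114 without WT replicate 1, 0.083 without WT replicate 2, 0.097 without KO replicate 1 and 0.141 without KO replicate 2. Without KO replicate 1 or KO replicate 2 edgeR called 0 genes of the whole table. In those fits 1219 and 1010 genes were higher at an unadjusted p under 0.05, and 1038 and 977 lower.

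Eef2k (ENSMUSG00000035064, chromosome 7, 120842831 to 120907450, plus strand, GRCm38), a protein-coding gene, encodes the kinase that phosphorylates and inhibits eEF2. It had 1848 and 2517 counts in WT and 1030 and 1179 in KO, that is 89.0 and 106 CPM in WT and 45.7 and 45.9 CPM in KO. The KO libraries were nearly equal, and both lay far below both WT libraries. The level fell 2.13-fold, from 97.5 ± 11.9 to 45.8 ± 0.195 CPM (SD, n = 2), with a log2 fold change of -1.09 (SE 0.13, edgeR adjusted p = 0.0434). Within the male pair the log2 difference was -0.95 and within the female pair -1.20. The call was made in 13 of 15 alternatives, with log2 fold changes from -1.22 to -0.92. It was lost without KO replicate 1 (-1.10, edgeR adjusted p = 0.293) and without KO replicate 2 (-1.08, adjusted p = 0.378), as were all calls in the table. In bulk RNA a smaller number of expressing cells and less RNA per cell cannot be told apart. Other annotated genes overlap Eef2k, Gm15774 on the opposite strand and Gm45047 on the same strand. Whether counting used strand was not stated in the sources used here.

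The substrate of this kinase had the opposite sign. Eef2 (ENSMUSG00000034994, chromosome 10, 81176631 to 81182498, plus strand), the translocation factor, was at 1159 and 1055 CPM in WT and 1498 and 1528 CPM in KO. Both KO libraries lay above both WT libraries, with group means of 1107 ± 74.0 CPM (WT) and 1513 ± 21.1 CPM (KO; SD, n = 2). Its log2 fold change of 0.45 (SE 0.16) was not called by edgeR (adjusted p = 0.145) and was called by DESeq2 (adjusted p = 0.0188). The number of Eef2k counts per 1000 Eef2 counts, a ratio taken within a library and so free of scaling, was 76.8 and 100.4 in WT and 30.5 and 30.1 in KO, without overlap. The mean ratio was 88.6 ± 16.7 in WT and 30.3 ± 0.294 in KO (SD, n = 2), 2.93-fold lower in KO. This ratio was formed after the values of both genes were seen and is given without a test.

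The upstream sequences of both genes are printed because each carries an E-box, the palindrome CACGTG bound by Myc-type and USF-type factors, close to an annotated start. The windows are the 250 bases before a RefSeq transcript start (GRCm38.p6), read 5′ to 3′ on the strand of the gene. Capitals mark the E-box (CACGTG), the GC box (GGGCGG, or CCGCCC on the other strand) and the TATA box (TATAAA, or TTTATA on the other strand). The window of Eef1a1, the most abundant member, is added for comparison.
Eef2k promoter, chr7:120842581-120842830, plus strand: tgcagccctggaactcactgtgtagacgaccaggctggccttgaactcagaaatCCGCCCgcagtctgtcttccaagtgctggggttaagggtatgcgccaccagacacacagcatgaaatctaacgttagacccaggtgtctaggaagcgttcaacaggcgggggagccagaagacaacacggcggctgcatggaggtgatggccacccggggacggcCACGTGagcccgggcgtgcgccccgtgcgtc
Eef2 promoter, chr10:81176381-81176630, plus strand: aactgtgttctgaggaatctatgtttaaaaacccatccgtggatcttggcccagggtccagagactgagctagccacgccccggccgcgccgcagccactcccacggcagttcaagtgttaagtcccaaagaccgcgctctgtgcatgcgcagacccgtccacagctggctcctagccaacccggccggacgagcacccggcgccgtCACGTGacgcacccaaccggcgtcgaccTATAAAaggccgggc
Eef1a1 promoter, chr9:78481725-78481974, minus strand: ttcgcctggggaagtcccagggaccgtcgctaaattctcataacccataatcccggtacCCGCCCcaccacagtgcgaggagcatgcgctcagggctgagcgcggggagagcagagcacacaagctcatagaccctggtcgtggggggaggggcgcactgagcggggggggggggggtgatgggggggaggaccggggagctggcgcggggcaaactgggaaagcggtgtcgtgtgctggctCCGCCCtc
In Eef2k the first base of the E-box lay 31 bases upstream of this start, which is 1 of 3 starts annotated, and in Eef2 it lay 43 bases upstream, with a TATA box at 15 bases. Eef1a1 held 2 GC boxes and no E-box in this window. Windows were found for 51 members, 65 in all. An E-box was in 13 of these windows (20%), from 11 genes, against 7.85% of the 13853 windows of tested genes and 6.02% of all 32851 windows. The 11 genes were Eef2, Eef2k, Eif1b, Eif3f, Eif3k, Eif4a1, Eif4e, Eif4g1, Eif4h, Eif5a and Eif5a2. They include Eef2k at a log2 fold change of -1.09 and Eef2 at 0.45, with opposite signs. The GC box was in 67.7% of member windows and 54.6% of those of tested genes, and TATAAA in 9.23% and 7.11%. The CCAAT box (CCAAT, or ATTGG on the other strand) was in 21.5% and 34.8%, and the ETS motif (CCGGAAGT, or ACTTCCGG) in 7.69% and 5.33%. The cyclic AMP response element TGACGTCA was in 0 of 65 member windows, against 2.47% of those of tested genes, and TGACGT (or ACGTCA), which overlaps it, in 15.4% and 9.44%. These are matches of letters and say nothing of binding.

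Because the deleted gene belongs to the m6A writer, the transcripts of the members were also searched for GGACT, the most frequent core of methylated sites, on the sense strand only and in 1 coding transcript per gene (GENCODE M21). The 25-base windows below hold the GGACT nearest the stop codon in members that stood out in level, with GGACT in capitals, 5′ to 3′ on the strand of the gene (GRCm38).
Eef2k, chr7:120903431-120903455, plus strand: agggaggatgGGACTcatttctagg
Eef2, chr10:81182248-81182272, plus strand: tctgcaggctGGACTggcaggctgt
Eif1, chr11:100321483-100321507, plus strand: cttttaacttGGACTagtgtaactc
Eif5, chr12:111545845-111545869, plus strand: tcagagccttGGACTtcagacacaa
Eif4ebp1, chr8:27260491-27260515, plus strand: tcccgcccggGGACTacagcaccac
The site in Eef2k begins 50 bases after the stop codon, in the 3′ UTR. Those in Eef2, Eif1 and Eif5 lie 176, 132 and 1237 bases after it, also in the 3′ UTR. The one in Eif4ebp1 is in the coding sequence. Eef2k held 8 such motifs, 5 of them in the 3′ UTR, in a transcript of 6580 bases. Its density of 1.22 per kb was above that of 59.3% of tested genes. Eif1a held 2 and none in the 3′ UTR, with a density of 0.92 per kb, above that of 41.7%. The transcript searched was the one with the longest coding sequence. For Eif1a that sequence had 765 bases, against 435 in its paralogue Eif1ax, and other Eif1a transcripts were not searched. Eef1a1, Eif4e2, Eif4ebp3, Eif2s2, Eif2s3y, Eif3g and Eif3k held 0 in the transcript searched. Of the 62 tested members with such a transcript, 55 had at least 1 GGACT, against 91.7% of tested genes. In 31 of the 62 GGACT was in the 3′ UTR, against 58.1% of tested genes. The members' median density was 1.02 per kb, against 1.06 per kb in 13491 tested genes. Methylation was not measured in the data used here, so these are positions of letters in the transcripts.

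**Figure D2:**
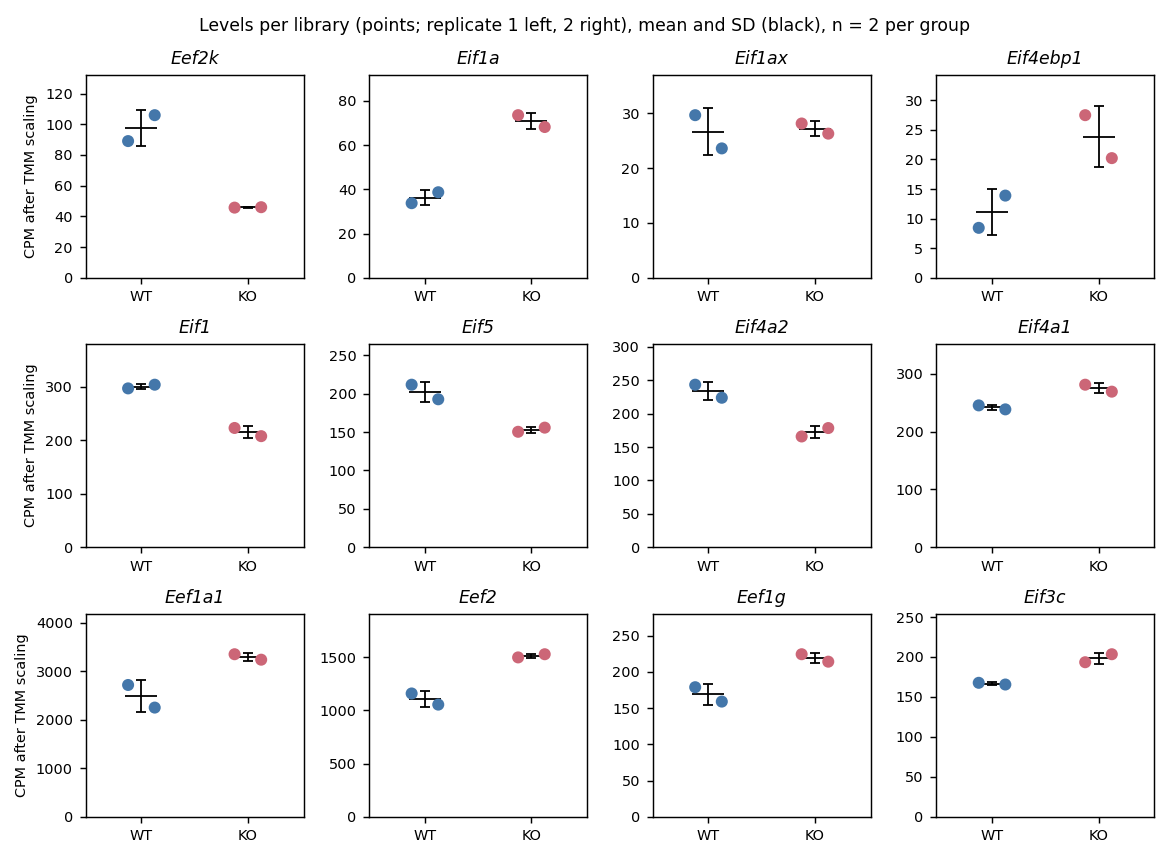
Levels of 12 members in each library (y axis, CPM after TMM scaling; points, replicate 1 on the left and 2 on the right), with the group mean and SD in black. The WT and KO points do not overlap in any panel except Eif1ax. These 12 were picked for display. Among all tested members 40 of 63 did not overlap, and 63.3% of all genes tested did not. Among these 12 the largest fold changes are in Eif4ebp1 (8.43 and 13.9 CPM in WT against 27.5 and 20.2 CPM in KO, not called by edgeR), Eef2k (89.0 and 106 against 45.7 and 45.9 CPM) and Eif1a (33.7 and 38.7 against 73.6 and 68.2 CPM).

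Among the 8 factors for start codon scanning and subunit joining, edgeR called 1 higher and 0 lower, and DESeq2 called 1 in each direction (Eif1a higher and Eif1 lower). Eif1a (ENSMUSG00000057561, on chromosome 18) encodes eIF1A, which binds the decoding site of the small subunit and keeps it open for scanning. It was at 33.7 and 38.7 CPM in WT and 73.6 and 68.2 CPM in KO, and both KO libraries lay well above both WT libraries. It rose 1.96-fold, from 36.2 ± 3.50 to 70.9 ± 3.79 CPM (SD, n = 2; log2 fold change 0.97, SE 0.12, edgeR adjusted p = 0.0434). The log2 difference was 1.01 in the male pair and 0.92 in the female pair. Its call held in 13 of 15 alternatives (0.86 to 1.13) and was lost without KO replicate 1 (0.90, edgeR adjusted p = 0.293) or KO replicate 2 (1.04, adjusted p = 0.378).

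The X-linked gene Eif1ax encodes a near-identical eIF1A protein. It stood at 29.7 and 23.6 CPM in WT and 28.2 and 26.3 CPM in KO, a log2 fold change of 0.03 (SE 0.15), with overlapping groups. Of the 50-base stretches in the transcripts searched for GGACT, 5.39% in Eif1a and 0 in Eif1ax recur in another gene. The Eif1a transcript was the one with the longer coding sequence named above. Eif1a made up 58.9% and 67.4% in WT and 76.7% and 76.6% in KO of their summed counts per kb of exon. Its mean share was 63.2% ± 6.00 in WT and 76.7% ± 0.0972 in KO (SD, n = 2).

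Eif1, which guards the choice of start codon, and Eif5, which triggers GTP hydrolysis by eIF2 once the start codon is found, pointed the other way. Eif1 was at 297 and 304 CPM in WT and 223 and 208 CPM in KO. The KO libraries lay below both WT libraries, with a log2 fold change of -0.48 (SE 0.12, edgeR adjusted p = 0.0867), and DESeq2 called it lower (adjusted p = 0.0232). Of the 50-base stretches of Eif1, 31.6% recur in other genes, so its counts depend on how shared reads were assigned. Eif5 was at 212 and 193 CPM in WT and 150.4 and 156 CPM in KO, again without overlap (-0.40, edgeR adjusted p = 0.113). Eif1ad, whose protein has an eIF1A-like domain, was at 18.3 and 18.01 CPM in WT and 24.7 and 22.4 CPM in KO (0.38, edgeR adjusted p = 0.117). The remaining members of the group differed less. Eif5b, the GTPase that joins the subunits, had a log2 fold change of 0.10, Eif6, which keeps the large subunit from joining early, 0.19, and Eif1b, a minor eIF1 gene, -0.13. The level of Eif1b relative to Eif1 was small, at 5.15% ± 0.0216 in WT and 6.47% ± 0.0407 in KO (SD, n = 2) of their counts per kb.

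No gene of eIF2 or of its exchange factor eIF2B was called by edgeR or DESeq2. The 9 genes had a median log2 fold change of 0.04, which moved to 0.13 without WT replicate 1, 0.18 without WT replicate 2, -0.07 without KO replicate 1 and 0.10 without KO replicate 2. Eif2s1, the alpha subunit that stress kinases phosphorylate, was at 32.3 and 26.0 CPM in WT and 30.3 and 28.0 CPM in KO (0.00). Eif2s2, the beta subunit and the most abundant of the group, was at 267 and 337 CPM in WT and 320.1 and 273 CPM in KO, with overlapping groups (-0.03). The eIF2B subunits did not point one way. Eif2b1, the alpha subunit, was at 25.9 and 22.2 CPM in WT and 31.4 and 30.6 CPM in KO (0.37, edgeR adjusted p = 0.131), while Eif2b5, the catalytic epsilon subunit, was at 36.2 and 32.6 CPM in WT and 28.6 and 28.95 CPM in KO (-0.26, edgeR adjusted p = 0.187). The log2 fold changes of Eif2b2, Eif2b3 and Eif2b4 were 0.30, 0.33 and -0.20.

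The gamma subunit of eIF2 has an X-linked and a Y-linked gene in the mouse, and their levels followed the sex of the library. Eif2s3y was at 32.6 CPM in WT replicate 1 and 35.6 CPM in KO replicate 2, the male libraries, and had 0 counts in the female ones, which allows up to 0.12 CPM in WT replicate 2 and 0.132 CPM in KO replicate 1 (3 counts, counting error only). Eif2s3x was at 68.7 and 62.2 CPM in the male libraries and at 91.4 and 102 CPM in the female ones, and 36.2% of its 50-base stretches recur in other genes. In the males Eif2s3y gave 30.3% (WT) and 34.4% (KO) of the gamma subunit counts per kb. Within the male pair the log2 difference, KO minus WT, was 0.13 for Eif2s3y and -0.14 for Eif2s3x, and within the female pair it was 0.16 for Eif2s3x. Each is 1 library against 1 and has no test.

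The alternative factors Eif2a and Eif2d, which can deliver initiator tRNA without eIF2, were both moderate in level. Eif2a averaged 25.3 ± 4.38 CPM (WT) and 27.6 ± 0.413 CPM (KO; SD, n = 2). Eif2d did not overlap between groups, at 19.2 and 16.4 CPM in WT and 14.0 and 11.1 CPM in KO (-0.50, edgeR adjusted p = 0.142).

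The eIF3 complex, the large scaffold that binds the small subunit, had 13 of its 14 genes tested. None was called by edgeR or DESeq2, and 8 of 13 had a positive log2 fold change. For 5 (38.5%) both KO libraries lay above both WT libraries, against 31.1% of all genes, and for 0 below, against 32.2%. Their median was 0.13, as for all members, and 0.06 without WT replicate 2 or 0.04 without KO replicate 1. Eif3c, the most abundant, was at 168 and 166 CPM in WT and 193 and 203 CPM in KO (0.25, edgeR adjusted p = 0.216). Eif3d, the subunit that can bind the cap itself, was at 43.7 and 41.9 CPM in WT and 51.4 and 50.7 CPM in KO, a tight pattern with a log2 fold change of 0.26 (SE 0.09, edgeR adjusted p = 0.149). The other subunits with non-overlapping groups were Eif3a (0.17), Eif3i (0.25) and Eif3l (0.18). The subunits Eif3e (-0.20) and Eif3k (-0.10) had the lowest log2 fold changes, with overlap. Among the 13 tested subunits the mean levels in WT per kb of exon ran from 4.996 CPM for Eif3j1, the loosely bound subunit, to 58.0 CPM for Eif3h. Eif3j2, a near copy of Eif3j1 that shares 91.8% of its 50-base stretches with another gene, had 15 and 10 counts in WT and 5 and 0 in KO and was not tested.

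No eIF4A gene or cofactor was called by edgeR, and DESeq2 called 1 lower (Eif4a2). Eif4a1 and Eif4a2 encode near-identical helicases that unwind 5′ leaders. Eif4a1 was at 245 and 238 CPM in WT and 281 and 269 CPM in KO (0.19, edgeR adjusted p = 0.352). Eif4a2 was at 243 and 224 CPM in WT and 166 and 178 CPM in KO, with both KO libraries below both WT libraries (log2 fold change -0.44, SE 0.13, edgeR adjusted p = 0.103). Its DESeq2 adjusted p was 0.0498. Of their counts per kb together with Eif4a3, a member of the exon junction complex, Eif4a2 took 38.2% and 36.9% in WT and 27.2% and 29.2% in KO. Eif4a1 took 47.5% and 48.5% in WT and 56.8% and 54.2% in KO. Reads of these genes may be shared with other loci, as 65.3% of the 50-base stretches of Eif4a1 and 25.8% of those of Eif4a2 recur elsewhere. The helicase cofactors Eif4h and Eif4b were also lower in both KO libraries, at 201 and 207 CPM in WT and 166 and 169 CPM in KO (-0.28) for Eif4h and 176 and 139 CPM in WT and 132 and 131 CPM in KO (-0.26) for Eif4b. Neither was called by edgeR (adjusted p = 0.177 and 0.305).

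Among cap-binding proteins, Eif4e, the limiting subunit of eIF4F, was at 32.3 and 31.1 CPM in WT and 33.9 and 35.5 CPM in KO (0.13, edgeR adjusted p = 0.415). Eif4e2, which binds the cap without recruiting eIF4G and represses its targets, was at 49.8 and 47.3 CPM in WT and 40.3 and 36.5 CPM in KO, lower in both KO libraries (-0.34, edgeR adjusted p = 0.115). Its share of the 3 tested cap-binding genes, per kb, was 47.9% and 50.1% in WT and 41.5% and 38.1% in KO. That of Eif4e was 38.8% and 41.1% in WT and 43.5% and 46.2% in KO. Eif4e3, a minor cap-binding gene, was at 4.63 and 2.78 CPM in WT and 4.88 and 5.07 CPM in KO (0.43).

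The scaffold genes also differed among themselves. Eif4g1, the main eIF4G, was at 236 and 235 CPM in WT and 283 and 274 CPM in KO (0.24, edgeR adjusted p = 0.243). Eif4g2, whose protein lacks the eIF4E-binding site and serves cap-independent initiation, was at 489.6 and 539.5 CPM in WT and 446 and 390.0 CPM in KO (-0.30, edgeR adjusted p = 0.251). Per kb, Eif4g2 made up 56.2% ± 1.55 in WT and 47.4% ± 1.501 in KO of the 3 scaffold genes, and Eif4g1 35.8% ± 1.49 in WT and 44.1% ± 1.83 in KO (SD, n = 2). Eif4g3 was at 77.6 and 81.4 CPM in WT and 86.9 and 75.2 CPM in KO, with overlap.

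The 4E-binding proteins compete with eIF4G for eIF4E. As a group they did not point one way, with 2 positive and 2 negative log2 fold changes among 4 genes and a median of 0.08, but Eif4ebp1 had the largest positive log2 fold change of all members tested. It (ENSMUSG00000031490, chromosome 8, 27260329 to 27276674, plus strand) had 175 and 330 counts in WT and 620 and 519 in KO, or 8.43 and 13.9 CPM in WT and 27.5 and 20.2 CPM in KO. The groups did not overlap, but the 2 libraries of each group differed more than for Eif1a. The group means were 11.2 ± 3.86 CPM (WT) and 23.9 ± 5.14 CPM (KO; SD, n = 2), with a log2 fold change of 1.09 (SE 0.30). It was not called by edgeR (adjusted p = 0.097). It was called with DESeq2 (adjusted p = 0.019), with sex as a term (edgeR adjusted p = 0.0264; 4.68% of all genes called higher and 4.8% lower) and without WT replicate 2 (1.53, edgeR adjusted p = 0.0287; 8.11% of genes called higher and 6.5% lower). It stood at 0.77 without WT replicate 1, 0.84 without KO replicate 1 and 1.31 without KO replicate 2. Eif4ebp2 was at 100.8 and 78.2 CPM in WT and 96.6 and 103 CPM in KO (0.16), and Eif4ebp3 at 35.5 and 35.8 CPM in WT and 30.5 and 25.8 CPM in KO (-0.34, edgeR adjusted p = 0.149). Of the counts per kb of the 3 genes, Eif4ebp1 took 5.57% and 9.31% in WT and 17.8% and 14.9% in KO. Eif4ebp3 took 69.2% and 70.8% in WT and 58.4% and 56.2% in KO, although 65.5% of its 50-base stretches are shared with another annotated gene. Eif4enif1, the eIF4E transporter, was level at 29.1 and 30.6 CPM in WT and 29.7 and 30.0 CPM in KO.

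**Figure D3:**
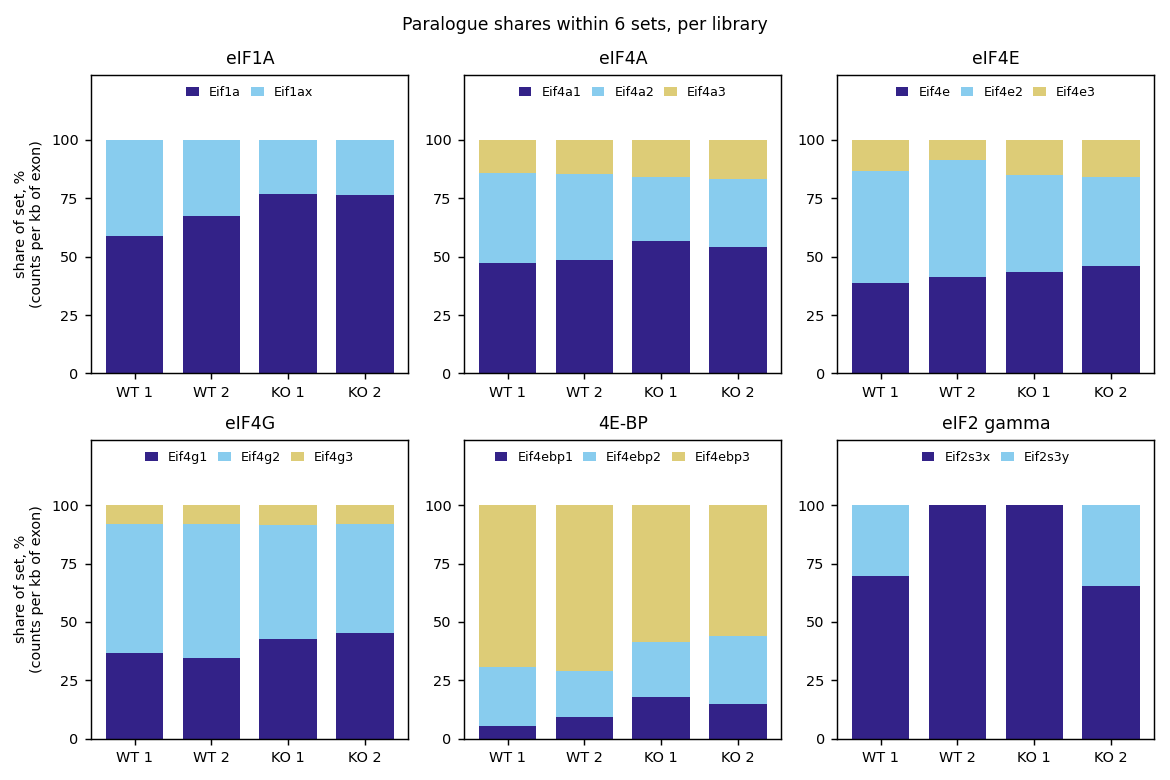
Share of each gene in the summed counts per kb of exon of its paralogue set, in percent (y axis), for 6 sets in each library. Eif1a runs from 58.9% and 67.4% in WT to 76.7% and 76.6% in KO, and the eIF2 gamma panel shows Eif2s3y in the male libraries only (WT 1 and KO 2).

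A share within a set does not depend on how the libraries are scaled. In all, 29 shares in 12 sets were compared, and 22 did not overlap between groups. These are not 22 separate facts, because the shares within a set depend on each other. In a set of 2 genes each share mirrors the other, which holds for 8 of the 22. The 22 include shares of untested genes with few counts (Eef1a2, Eif3j2 and Pabpc1l). For the levels themselves, 63.3% of all genes tested did not overlap between groups in either direction. With 2 libraries against 2 the two-sided exact permutation test cannot give a p below 0.333, which each of these 22 reached, and the smallest adjusted p over the shares was 0.439. None of the shares therefore could pass 0.05. With raw counts in place of counts per kb the shares of the pairs described above had the same sign, at 14.6 percentage points for Eif1a, -10.3 for Eif4a2, -8.67 for Eif4e2, -8.30 for Eif4g2 and 7.34 for Eif4ebp1 (KO minus WT), against 13.5, -9.40, -9.24, -8.75 and 8.95 per kb.

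The poly(A)-binding proteins, which bridge the mRNA tail to eIF4G, were represented by Pabpc1 and Pabpc4. Pabpc1 was at 276 and 262 CPM in WT and 308 and 286 CPM in KO (0.14) and Pabpc4 at 38.7 and 36.9 CPM in WT and 45.6 and 42.7 CPM in KO (0.22, edgeR adjusted p = 0.206). Both were higher in the KO libraries without overlap and neither was called. For Pabpc4, 74.7% of the 50-base stretches recur in another gene. The other 5 genes of the family were not tested, with 4, 4, 6 and 9 counts for Pabpc1l, at most 1 count per library for Pabpc4l and Pabpc5, and 0 for Pabpc2 and Pabpc6.

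Elongation factors made up much of the summed level. Eef1a1 (ENSMUSG00000037742, chromosome 9, 78478449 to 78489151, minus strand), which delivers aminoacyl-tRNA, was the most abundant member at 2715 and 2249 CPM in WT and 3348 and 3236 CPM in KO. Both KO libraries lay above both WT libraries, but the WT libraries differed from each other by about as much as the nearest KO and WT libraries did. Its log2 fold change was 0.41 (SE 0.19, edgeR adjusted p = 0.224), at 0.25 in the male pair and 0.57 in the female pair. No alternative called it. Per kb of exon Eef1a1 was at 995 CPM in WT, against 333 for Eef2 and 143 for Eif1. Eef1a2, the muscle and neuron form, had 2 and 3 counts in WT and 0 and 1 in KO.

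All 5 tested genes of the eEF1 complex had positive log2 fold changes, although Eef1b2 turned negative without WT replicate 2 (-0.03) or KO replicate 1 (-0.00157). Their median was 0.37, and it ranged over the alternatives from 0.19 (without WT replicate 2) to 0.54. Eef1g, the gamma subunit of the exchange complex that recharges eEF1A, was at 179 and 159 CPM in WT and 225 and 214 CPM in KO (0.38, SE 0.13, edgeR adjusted p = 0.137). The exchange subunits Eef1b2 (0.05) and Eef1d (0.06) were nearly level, and Eef1e1, which sits in the tRNA synthetase complex, was at 5.97 and 4.38 CPM in WT and 6.74 and 6.62 CPM in KO (0.37). Of the 50-base stretches, 59.2% in Eef1a1 and 64.3% in Eef1g recur in other genes, so their counts depend on how shared reads were assigned.

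Eif5a, which relieves stalled ribosomes and carries the amino acid hypusine, was at 154 and 153 CPM in WT and 188 and 177 CPM in KO (0.25, edgeR adjusted p = 0.217), without overlap. Its paralogue Eif5a2 was scarce, at 2.26 and 0.800 CPM in WT and 0.709 and 1.40 CPM in KO. Beside Eef2k, the modifying enzymes among the members were the lysine methyltransferases Eef2kmt (8.09 and 6.27 CPM in WT and 9.62 and 9.27 CPM in KO; 0.40) and Eef1akmt1 (0.14), neither called by edgeR or DESeq2.

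The members summed to 9260 and 8580 CPM in WT and 10270 and 9925 CPM in KO. Eef1a1 and Eef2 alone gave 41.8% and 38.5% of the members' counts in WT and 47.2% and 48.0% in KO. Without these 2 genes the sums were 5386 and 5276 CPM in WT and 5424 and 5161 CPM in KO, and the groups overlapped. As a share of the non-mitochondrial counts, which involves no TMM factor, the other 70 genes took 0.763% and 0.705% in WT and 0.799% and 0.814% in KO, with both KO libraries higher. Whether the remaining members were higher in KO thus depended on the scaling.

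**Figure D4:**
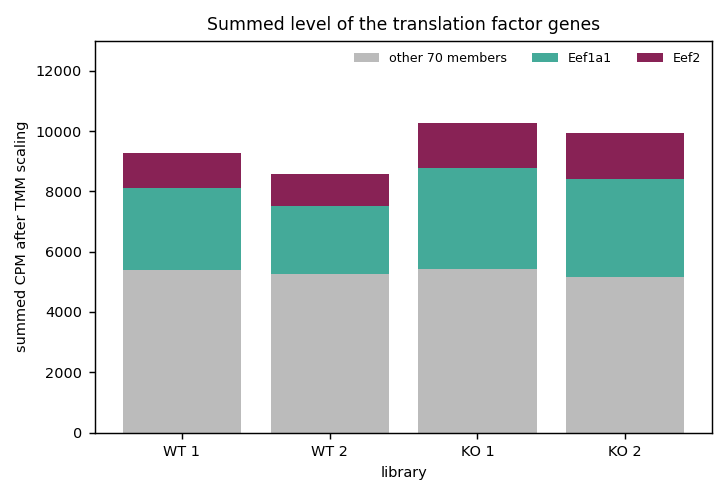
Summed level of the 72 members in each library (y axis, CPM after TMM scaling), split into Eef1a1, Eef2 and the other 70 genes. The grey part is between 5161 and 5424 CPM in every library, while the coloured parts are taller in both KO libraries.

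The release factors differed little. Etf1 (eRF1), which reads stop codons, was at 62.0 and 74.2 CPM in WT and 77.2 and 74.7 CPM in KO (0.16). Gspt1 (eRF3a), the GTPase that works with it, was at 60.8 and 60.3 CPM in WT and 58.0 and 56.0 CPM in KO (-0.09). Gspt2, its X-linked copy, was at 4.58 and 7.11 CPM in WT and 5.32 and 8.22 CPM in KO (0.21), with overlap. No release factor was called (edgeR adjusted p = 0.44, 0.555 and 0.702).

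**Figure D5:**
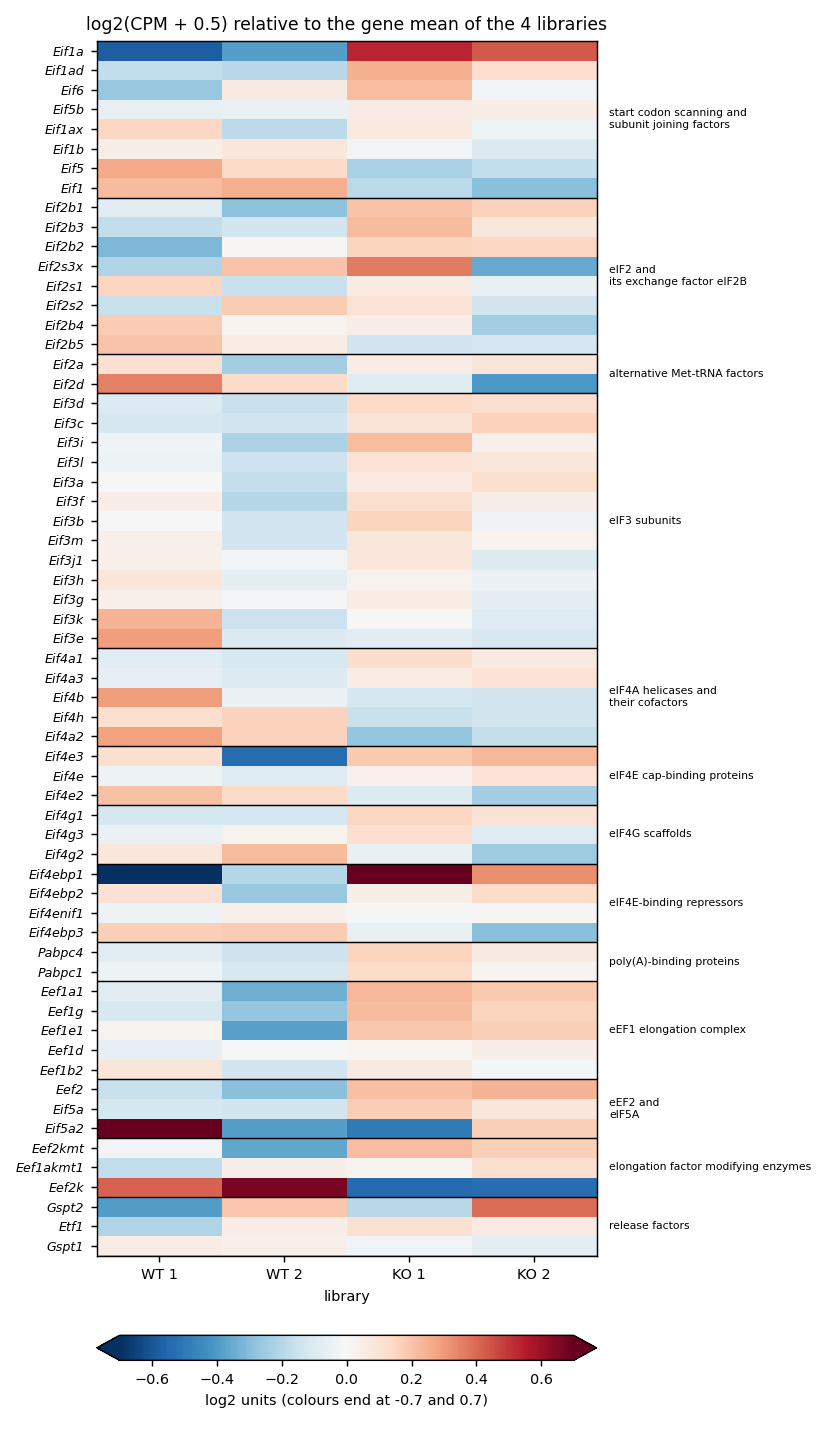
Level of the tested members in each library relative to the gene's mean over the 4 libraries, as log2(CPM + 0.5), with genes in rows by role and Eif2s3y left out. Eef2k is below its mean in both KO libraries and Eif1a, Eif4ebp1 and most elongation factors are above, while the medians over the members are 0.00 and -0.11 in WT and 0.06 and 0.04 in KO.

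Genes that act on these factors or in related steps of translation, mitochondrial translation included, were read from 7 lists. Of the 55 genes in them, all tested, edgeR called 1 higher and 0 lower, against 1.72% and 1.9% of all genes. DESeq2 called 3 higher and 0 lower, against 6.39% and 6.55% of all genes. The higher calls were thus near the background. The gene called by edgeR was Pelo, which with Hbs1l splits stalled ribosomes. It was at 4.77 and 6.48 CPM in WT and 16.9 and 16.1 CPM in KO, and rose from 5.63 ± 1.21 to 16.5 ± 0.569 CPM (SD, n = 2; log2 fold change 1.55, SE 0.20, edgeR adjusted p = 0.0437). Without KO replicate 1 it stood at 1.51 (edgeR adjusted p = 0.293) and without KO replicate 2 at 1.61 (0.378). Hbs1l was at 41.8 and 38.6 CPM in WT and 31.4 and 32.6 CPM in KO (-0.33, edgeR adjusted p = 0.117).

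The enzymes that make hypusine on eIF5A and diphthamide on eEF2 had positive log2 fold changes in 8 of 8 genes, with a median of 0.27, against 49% positive among all genes. None was called by edgeR or DESeq2, 2 (25%) were higher at an unadjusted p under 0.05 by edgeR, against 14.8% of all genes, and 5 (62.5%) without overlap, against 31.1%. The largest were Dph5 at 4.29 and 3.91 CPM in WT and 7.14 and 7.87 CPM in KO (0.87, edgeR adjusted p = 0.069) and Dph1 at 5.54 and 5.09 CPM in WT and 9.67 and 8.42 CPM in KO (0.77, edgeR adjusted p = 0.0751), both of the diphthamide pathway. The list's median was positive in all alternatives (0.27 to 0.44). Among 5 partners of poly(A)-binding protein, 4 were lower without overlap (80%, against 32.2% of all genes) and 1 higher, and none was called by edgeR or DESeq2. By edgeR 2 lower genes and 1 higher had an unadjusted p under 0.05. The list's median was -0.31, and -0.06 without WT replicate 1. Paip2, an inhibitor of Pabpc1, was at 41.0 and 42.1 CPM in WT and 30.4 and 25.9 CPM in KO (-0.56, edgeR adjusted p = 0.0651), and Paip1, a stimulator, at 22.7 and 23.3 CPM in WT and 16.1 and 17.7 CPM in KO (-0.44, edgeR adjusted p = 0.0904).

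Of 15 genes of mTORC1 signalling to eIF4F, 8 were lower without overlap (53.3%, against 32.2% of all genes) and 1 higher (6.67%, against 31.1%). None was called by edgeR, 1 higher and 1 lower had an unadjusted p under 0.05, and DESeq2 called 1 higher (Larp1). The median log2 fold change was -0.12, 0.05 with library size scaling and -0.05 without WT replicate 2. Larp1, which binds oligopyrimidine mRNAs, was at 79.4 and 75.5 CPM in WT and 112 and 112 CPM in KO (0.53, edgeR adjusted p = 0.0585). Rheb, the GTPase that activates mTORC1, was at 37.2 and 33.9 CPM in WT and 26.2 and 24.98 CPM in KO (-0.47, edgeR adjusted p = 0.0715). Of 9 genes for the eIF2 kinases and their phosphatase subunits none was called by edgeR or DESeq2, and edgeR's unadjusted p was under 0.05 for 0 higher and 2 lower genes. The lowest were Eif2ak1, the haem-regulated kinase, at 46.5 and 57.7 CPM in WT and 36.3 and 38.3 CPM in KO (-0.48, edgeR adjusted p = 0.101), and Impact, an inhibitor of Gcn2 activation, at 14.5 and 12.9 CPM in WT and 8.82 and 10.9 CPM in KO (-0.47). In the 3 initiation helicases the groups overlapped, with Ddx3x at -0.03 and Dhx29 at 0.20. Of 9 mitochondrial translation factors, 4 were higher without overlap (44.4%, against 31.1% of all genes) and 0 lower. None was called by edgeR and 1 higher by DESeq2 (Tsfm), and by edgeR 1 higher gene had an unadjusted p under 0.05. The largest log2 fold changes were those of Tsfm at 6.55 and 8.08 CPM in WT and 12.7 and 12.4 CPM in KO (0.77, edgeR adjusted p = 0.0693) and Gfm1 at 25.6 and 27.8 CPM in WT and 36.9 and 30.4 CPM in KO (0.33, edgeR adjusted p = 0.184).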

How the data were processed

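The authors deposited raw counts, 1 whole number per gene and library, as the values themselves show. Per the submitters' processing notes FastQC 0.11.2, STAR 2.4.2a, RSEM 1.2.29 and mm10 were used. The annotation release, any rounding and the strandedness were not given in the sources used here. Per the labels' protocols, mRNA was selected with oligo-dT beads. Genes were matched to GENCODE M21 (99.6% of rows), which gave coordinates and union exon lengths. No column was left without a sample (0), and 0 rows named no gene.

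Groups came from the genotype label, and replicate numbers follow accession order. KO was compared with WT by the quasi-likelihood F-test of edgeR 4.0.16 (R 4.3.3, legacy and robust options, TMM factors, filterByExpr, 14861 genes, two-sided, Benjamini-Hochberg, threshold 0.05), with 2 residual degrees of freedom. CPM are after TMM scaling, and a log2 offset of 0.5 was used for pair differences. P-values measure the spread between these libraries only. A count of 0 allows up to 3 counts, 0.12 to 0.136 CPM. In 3 simulated draws of this comparison (14530 to 14579 genes, 200 changed) 28.1% of 2-fold and 73.5% of 4-fold changes were called. Of the 330 calls, 34 (10.3%) fell on unchanged genes. The data held more calls, 255 higher and 282 lower. The adjusted p depends on the share of changed genes, so these rates need not hold for the data.

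The members and lists were chosen with earlier results of these data known. Named genes are called members, the most abundant and most changed member of each role, all tested members of paralogue sets, and in each other list the called genes or the 2 most changed; Hbs1l, Eif5, Eef1g, Eif1ad and the remaining members named were chosen after their values were seen. Alternatives were other scalings, DESeq2 1.42.0, limma-voom (limma 3.58.1), option and filter changes, mitochondrial genes left out, the modifying enzymes left out, each library left out, and, added after the data were seen, a sex term and raw-count paralogue shares. Shared 50-base stretches were counted over GENCODE transcripts. They made up over 10% of the stretches in 16 tested members and over 50% in 5. Promoter sequences are from RefSeq (GRCm38.p6), matched by symbol for 51 of 72 members.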

Additional observations from a re-analysis of the deposited data

Results flagged for a closer look

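The row Eif4a-ps4, a processed copy of Eif4a1 that the gene rule leaves out, held 31 and 53 counts in WT and 45 and 55 in KO, above the 3 counts that a count of 0 allows. It is the gene that shares most of its 50-base stretches with Eif4a1. Gspt2 was higher in KO within the male pair (log2 difference 0.78) and lower within the female pair (-0.39). With 1 library per sex and genotype that difference was not tested.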

How the results depend on the processing

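Of the 63 tested members, 17 changed the sign of the log2 fold change in at least 1 of 15 alternatives, as did 2 of the 15 other genes named, and edgeR had called none of these. Library size scaling gave 0.0338 for Eif1b, 0.15 for Eif3j1, 0.0768 for Gspt1, 0.13 for Eif2s2, 0.147 for Eif3h, 0.0669 for Eif3k, 0.144 for Eif3g, 0.165 for Eif4enif1 and 0.12 for Ddx3x, and upper quartile factors gave 0.0589 for Eif3j1, 0.0443 for Eif2s2, 0.0523 for Eif3h, 0.0522 for Eif3g, 0.0697 for Eif4enif1 and 0.0414 for Ddx3x, all negative with TMM factors. Eif3j1 was also positive with relative log expression factors (3.53e-05), without a filter (0.0135) and without mitochondrial genes (0.00343), and Eif4enif1 likewise (0.00909, 0.0224 and 0.0124), with DESeq2 (0.00902) and with the CPM filter (0.00521). Without a filter Eif3h was at 0.00805 and Eif3g at 0.00667. Leaving out each library in turn gave ranges of -0.11 to 0.10 for Eif3j1, -0.00499 to 0.31 for Eif2a, -0.0925 to 0.147 for Eif4g3, -0.38 to 0.37 for Eif2s3x, -1.07 to 0.39 for Eif5a2, -0.0919 to 0.195 for Eif1ax, -11.5 to 11.7 for Eif2s3y, -0.12 to 0.60 for Gspt2, -0.19 to 0.18 for Eif2s2, -0.0494 to 0.0699 for Eif4enif1, -0.116 to 0.156 for Eif2s1, -0.0629 to 0.0488 for Eif3h, -0.0257 to 0.154 for Eef1b2, -0.25 to 0.102 for Eif3k, -0.0938 to 0.0638 for Eif3g, -0.23 to 0.15 for Ddx3x and -0.0380 to 0.529 for Dhx29. Among all genes, DESeq2 called 949 higher and 973 lower, the fit without a filter 862 and 770, the sex term 696 and 713, library size scaling 604 and 186, and upper quartile factors 416 higher; without mitochondrial genes 163 were lower. Leaving out a library gave 0 to 1271 higher and 0 to 1019 lower. Members called higher numbered 3 with DESeq2 (Eif1a, Eif4ebp1, Eef2), 2 with the sex term and 0 to 2 with a library left out. Members called lower numbered 3 with DESeq2 (Eef2k, Eif1, Eif4a2), 0 to 1 with a library left out and 0 once the modifying enzymes, Eef2k among them, were left out. The members' median was 0.30 with library size scaling, 0.20 with upper quartile factors and 0.0691 to 0.154 with a library left out. Where 1 library was left out, the lone library of its group is assumed to vary like the other group. No paired analysis was possible by replicate number because the labels give none that groups share. The sex term, read from the data, acts as a block of the male and the female pair. Depth was similar in all libraries, and the 9 untested members had at most 15 counts in any of them.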
